A study of Rattus norvegicus with 54 samples.

Results

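The 6 genes described here are the chemokine receptor Cxcr4, its ligand Cxcl12, the second receptor of that ligand, Ackr3, the B cell chemokine Cxcl13, and the pair of Cxcl16 with its receptor Cxcr6. They were taken by symbol from deposited count tables of rat lung, with 12650 genes, and right ventricle, with 12199 genes, and both tables hold all 6. They were chosen with earlier results of these data known, among them the difference between altitude and room air in lung, so that contrast is given as a description with no test. Sprague Dawley rats of both sexes were kept in room air (labelled RA-RA) or in a chamber at reduced pressure that simulated 9000 feet and matched 15% inspired oxygen (labelled H-H, called altitude here). Pups were weaned at day 21, and tissues were taken at 6 weeks of age. The labels name no transgene and no drug. The altitude rats belonged to 2 litters, 3HH with 8 rats and 4HH with 6, and each of these 14 rats gave both tissues. Room air lungs came from 8 rats of 4RARA and 7 of 6RARA, 15 in all, and room air ventricles from 7 rats of 4RARA and 4 of 6RARA, 11 in all. Each litter had a single treatment, so littermates share an exposure. P-values over rats then measure the spread among littermates together with the difference between litters, and a treatment and its litters cannot be told apart beyond what leaving out a litter shows.

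CXCR4 is a G protein-coupled receptor on leukocytes, on endothelium of growing vessels and on progenitor cells, and it moves cells towards CXCL12, which stromal and perivascular cells make. ACKR3 binds the same ligand and removes it from the surroundings without the usual G protein signal, and so shapes its gradient. CXCL13 draws B cells through another receptor, CXCR5, and CXCL16 is a membrane-bound ligand for CXCR6 that can also be shed. CXCR4 and CXCL12 are known as hypoxia-responsive genes in cultured human cells and have been studied in pulmonary hypertension and in the injured heart.

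The 250 bases before the RefSeq start sites on the GRCr8 assembly show how the Cxcr4 axis genes differ at their promoters. The windows of Cxcr4, of Cxcl12 and Ackr3, which share its axis, and of Cxcl13, which differed most in the ventricle, are printed 5′ to 3′ on the gene's strand. Capitals mark matches on either strand to the hypoxia response element cores ACGTG or to its variant GCGTG, and to the TATA box TATAAA.
Cxcr4, chr13:42634289-42634538, minus strand: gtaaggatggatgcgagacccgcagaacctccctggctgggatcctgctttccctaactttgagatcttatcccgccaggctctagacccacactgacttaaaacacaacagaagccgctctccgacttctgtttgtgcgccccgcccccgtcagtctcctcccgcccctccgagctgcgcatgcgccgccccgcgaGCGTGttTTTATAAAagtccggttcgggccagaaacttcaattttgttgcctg
Cxcl12, chr4:152060531-152060780, plus strand: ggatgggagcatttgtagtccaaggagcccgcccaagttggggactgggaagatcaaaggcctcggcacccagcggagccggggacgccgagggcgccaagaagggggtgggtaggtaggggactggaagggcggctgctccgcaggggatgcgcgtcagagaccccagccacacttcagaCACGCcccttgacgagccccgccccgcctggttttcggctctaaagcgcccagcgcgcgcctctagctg
Ackr3, chr9:98247104-98247353, plus strand: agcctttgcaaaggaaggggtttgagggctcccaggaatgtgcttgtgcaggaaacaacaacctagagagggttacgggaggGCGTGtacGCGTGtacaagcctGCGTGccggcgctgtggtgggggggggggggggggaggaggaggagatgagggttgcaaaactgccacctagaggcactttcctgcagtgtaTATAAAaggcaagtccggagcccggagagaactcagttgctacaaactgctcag
Cxcl13, chr14:13917921-13918170, minus strand: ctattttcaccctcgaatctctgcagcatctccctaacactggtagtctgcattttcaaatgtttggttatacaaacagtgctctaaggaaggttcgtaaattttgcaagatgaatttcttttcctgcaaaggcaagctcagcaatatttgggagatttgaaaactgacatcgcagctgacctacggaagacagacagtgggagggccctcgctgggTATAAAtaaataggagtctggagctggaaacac
The Cxcr4 window held 1 GCGTG and the TATAAA letters on both strands, which overlap there. Of 33469 rat promoter windows of this length, 25.9% held GCGTG on either strand. The TATAAA letters were in 12.9% of them. Ackr3 held 3 GCGTG and 1 TATAAA, Cxcl12 held 1 GCGTG on the opposite strand, and Cxcl13 held 1 TATAAA. The windows of Cxcl16 and Cxcr6 held none of these letters, and no member window held ACGTG, which was in 16.6% of all windows. These matches describe letters in a window and are no evidence of binding. On the rn6 build of the deposited tables, Cxcr4 lies at chr13:45314952-45318856, Cxcl12 at chr4:149261044-149273891, Ackr3 at chr9:97355924-97367447, Cxcl13 at chr14:15253149-15258185, Cxcl16 at chr10:57060005-57064600 and Cxcr6 at chr8:132869712-132871501. Of the exonic bases of Cxcl16, 119 of 1707 also belong to Zmynd15 on the other strand, and the strand setting of the counting was not given. The exons of the other 5 members overlap no other gene in the tables.

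The depth of a lung library lay between 1028679 and 23902634 counted reads, and that of a ventricle library between 6116006 and 16326512. Several libraries stand apart. Both libraries of rat 4HH37 held RNA of the other tissue: lung epithelium markers in its ventricle lay at a median of 41.2% of their lung level, and cardiac markers in its lung at 13.3% of their ventricular level. The 4 ventricle libraries of litter 6RARA had lung epithelium markers at 1.2 to 6.13% of lung level, RNA integrity numbers of 5.8 to 7.4 and intergenic reads of 17.3 to 22.5%, against 9.28 to 12.3% in litter 4RARA. The lung libraries of 6RARA66 (1028679 counts, 59.2% intergenic), 6RARA68 and 4HH39 also stand apart. Of these, 6RARA68 and 4HH39 were not shallow, at 16421824 and 19693156 counts, and had RNA integrity numbers of 8.5 and 7.9. Their TMM scaling factors were 0.86 and 0.7, against 0.967 to 1.08 in the other lung libraries. In all other ventricle libraries lung epithelium markers lay at no more than 0.66% of their lung level.

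Per kilobase of exon, Cxcl12 was the most abundant member in right ventricle and Cxcl16 in lung, while Cxcr6 and Cxcl13 were the scarce ones in both tissues. In lung, median levels in CPM per kilobase (CPM is the count per 1e+06 counted reads, scaled by TMM) were 79.9 for Cxcl16, 61.5 for Ackr3, 49.2 for Cxcr4, 28.3 for Cxcl12, 1.83 for Cxcr6 and 1.74 for Cxcl13. Cxcr4 lay above Cxcl12 in 29 of 29 lung libraries, whereas Cxcr6 lay above Cxcl13 in 18 of 29, so that these last ones are not separated by their spread. In right ventricle the order was Cxcl12 at 63, Ackr3 at 48.6, Cxcl16 at 23.8, Cxcr4 at 14.4, Cxcl13 at 3.56 and Cxcr6 at 0.832 CPM per kilobase. The ligand thus lay below its receptor Cxcr4 per length in every lung library, and in the ventricle the median level of the ligand lay above that of the receptor. The order in lung rests on the exon lengths used, 6921 bases for Cxcl12 and 1708 for Cxcr4. In CPM not divided by length, Cxcl12 had the higher median in lung, 196 against 84 for Cxcr4. Cxcl12 exceeded Ackr3 in 20 of 25 ventricle libraries, and Cxcl13 exceeded Cxcr6 in 25 of 25. RNA per cell and the number of cells of a type cannot be told apart in such bulk tissue, here or in the results that follow.

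**Figure D1:**
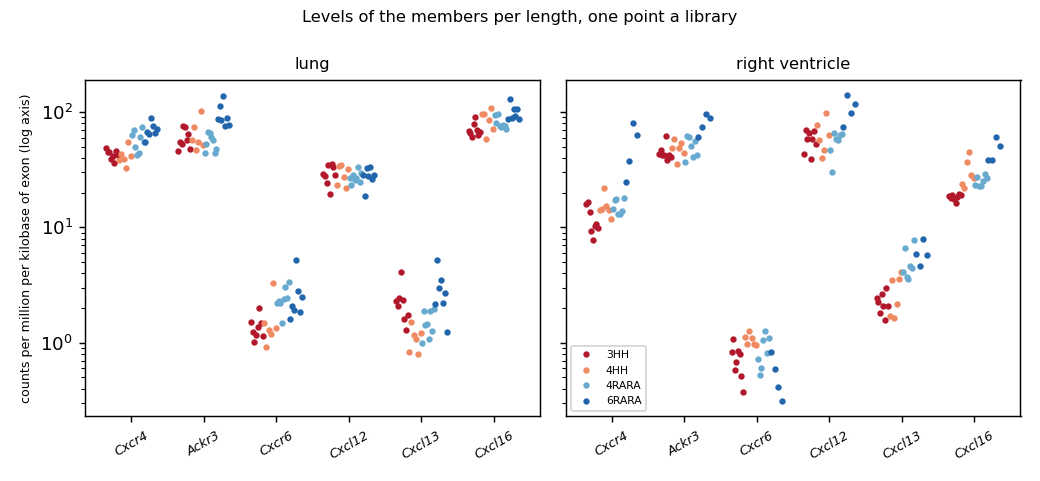
Levels of the 6 members in CPM per kilobase of exon on a log axis, with 1 point for each of 29 lung libraries (left) and 25 right ventricle libraries (right), coloured by litter. Per kilobase, Cxcr4 lies above Cxcl12 in lung and below it by median in the ventricle, and the 4 ventricle libraries of litter 6RARA hold the highest ventricular Cxcr4. In CPM not divided by length, the lung median of Cxcl12 is above that of Cxcr4.

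Between tissues, the receptor Cxcr4 and the ligand Cxcl16 were higher in lung, and the ligands Cxcl12 and Cxcl13 higher in right ventricle, in room air and at altitude alike. Levels for this comparison are CPM scaled over both tissues together, and tests are edgeR's quasi-likelihood test with Benjamini-Hochberg adjustment over all genes tested. In altitude rats, Cxcr4 lay at 48.1 to 80.2 CPM in lung (median 62.9) and at 16 to 39.8 CPM in right ventricle (median 28.1). The log2 difference, lung minus ventricle, was 1.28 ± 0.12 (SE, n = 14 of each tissue, adjusted p = 6.9e-11). In room air rats, Cxcr4 lay at 63.6 to 135 CPM in lung and at 26.4 to 161 CPM in ventricle, so the tissues overlapped. The log2 difference there was 0.78 ± 0.25 (adjusted p = 0.00847), and 1.61 ± 0.12 without the libraries that stand apart (adjusted p = 4.06e-11).

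Cxcl12 was lower in lung than in ventricle, by a log2 difference of -1.85 ± 0.17 in room air (adjusted p = 1.06e-10) and -1.46 ± 0.13 at altitude (adjusted p = 2.8e-11). Cxcl13 was lower in lung by -1.86 ± 0.22 in room air (adjusted p = 1.7e-08) and by -0.89 ± 0.21 at altitude (adjusted p = 0.000331). Cxcl16 was higher in lung, at 1.01 ± 0.15 (adjusted p = 1.18e-06) and 1.31 ± 0.15 (adjusted p = 4.79e-09). Cxcr6, found on tissue-resident T cells, was higher in lung in room air at 1.28 ± 0.22 (adjusted p = 1.24e-05), and its altitude difference of 0.34 ± 0.19 missed the threshold (adjusted p = 0.11). Ackr3 stood at -0.16 (95% interval -0.52 to 0.20) in room air and -0.02 (-0.22 to 0.17) at altitude. In room air 5 of the 6 members were called, where 67.3% of all 11622 genes tested were, and at altitude 4 of 6, where 71.6% of 11529 were, so the share of members is near that of all genes. With the rat as a block over rats that gave both tissues, Ackr3 was also called in room air, at -0.29 (adjusted p = 0.00825).

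Of 23 genes of CXCR4 signalling and ligand processing, 14 were higher and 2 lower in lung in room air (median log2 difference 0.50, against -0.04 over all genes), where 32.1% of all genes were called higher. Without the libraries that stand apart, 19 were higher and 2 lower in room air (0.89, against 0.09), where 42.4% of 11675 genes were called higher. At altitude 18 were higher and 2 lower (0.76, against 0.06), where 38.2% of all genes were called higher. Of the other chemokine ligands, 7 of 14 were higher and 5 lower in lung in room air, with 8 and 2 without the libraries that stand apart, and 5 of 12 were higher and 5 lower at altitude. Among the signalling and processing genes, the greatest differences in room air were those of the protease Mmp9 (2.84 ± 0.34, adjusted p = 2.5e-08), Vav1 (2.67 ± 0.16, adjusted p = 2.45e-14) and Rac2 (2.38 ± 0.13, adjusted p = 1.51e-15). Vav1 and Rac2 relay receptor signals to the actin skeleton in blood cells. Among 15 regulators of transcription of the receptor and its ligand, 5 were higher and 3 lower in room air, and 8 and 2 without the libraries that stand apart. Egln3, an oxygen-sensing prolyl hydroxylase, was lower in lung at -5.61 ± 0.32 (adjusted p = 7.72e-15), and Epas1, the HIF2 alpha subunit, was higher at 2.07 ± 0.29 (adjusted p = 4.48e-07).

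In right ventricle, Cxcl13 was lower at altitude in both altitude litters, and Cxcr4 was lower than in room air mainly through litter 6RARA. Of the 6 members, 2 were called lower and none higher, where 2.2% of 11298 genes tested were called lower. All 6 passed the filter on low counts. Altitude ventricles held Cxcl13 at 1.72 to 4.46 CPM (median 2.41, n = 14) and room air ventricles at 3.89 to 8.62 CPM (median 5.08, n = 11). Every altitude ventricle lay below the room air median, which was so for 1.18% of 11255 genes with a mean of 1 CPM or more, and 13 of 14 lay below every room air ventricle. The log2 difference was -1.13 ± 0.18 (SE), a fold of 0.457 (adjusted p = 0.00449). Cxcl13 rested on 18 to 111 counts per ventricle library.

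By litter, median Cxcl13 in the ventricle was 2.37 CPM in 3HH, 3.07 in 4HH, 4.84 in 4RARA and 6.34 in 6RARA. The lower level thus held in either altitude litter against either room air litter. Without the libraries that stand apart, where 0.194% of 11343 genes were called lower, the difference was -0.99 ± 0.20 (adjusted p = 0.0343), and without litter 6RARA -1.03 ± 0.20 (adjusted p = 0.0333). Without litter 3HH it was -0.97 ± 0.26 and not called (adjusted p = 0.331). With litter as a random effect in limma voom it was -1.06 ± 0.44 and not called either (adjusted p = 0.751). No gene at all was called in these fits. Within library batch 1 the Cxcl13 difference was -1.30 and within library batch 2 -1.08, called in neither (adjusted p = 0.992 and 0.189). Over all genes, 0 of 11453 were called within batch 1 and 4 of 11363 within batch 2. Library batch 3 held 1 room air ventricle and was not fitted. The authors' deposited table gives -1.12 with a false discovery rate of 8.99e-07.

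Cxcr4 in altitude ventricles lay at 13.2 to 37.6 CPM (median 23.9, n = 14). Room air ventricles fell into litters: 4RARA lay at 22.1 to 31 CPM (median 25, n = 7), while the 4 libraries of 6RARA were at 42.3, 64.6, 108 and 138 CPM. The 4RARA values lie within the altitude range, and all 4 values of 6RARA lie above it. The top of that range, 37.6 CPM, is 4HH37, whose ventricle held lung RNA. Without it, altitude ventricles lay at 13.2 to 28.4 CPM (n = 13). Of these, 6 lay below every 4RARA ventricle, and 3 of 7 4RARA ventricles lay above them all. The log2 difference over all libraries was -1.09 ± 0.25 (adjusted p = 0.0261). Without litter 6RARA it was -0.25 ± 0.14 (adjusted p = 0.653), and without all libraries that stand apart -0.31 ± 0.13 (adjusted p = 0.402). Without litter 4RARA it was -1.88 ± 0.18 (adjusted p = 5.04e-08). It was -0.79 ± 0.24 with RNA integrity as covariate (adjusted p = 0.109), -1.11 within library batch 1 and -1.24 within library batch 2 (adjusted p = 0.992 and 0.188). Batch 1 held the ventricles of 6RARA67 and 6RARA71 and batch 2 those of 6RARA65 and 6RARA72, so neither batch is free of that litter. The authors' deposited table gives -0.58 with a false discovery rate of 0.0497.

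**Figure D2:**
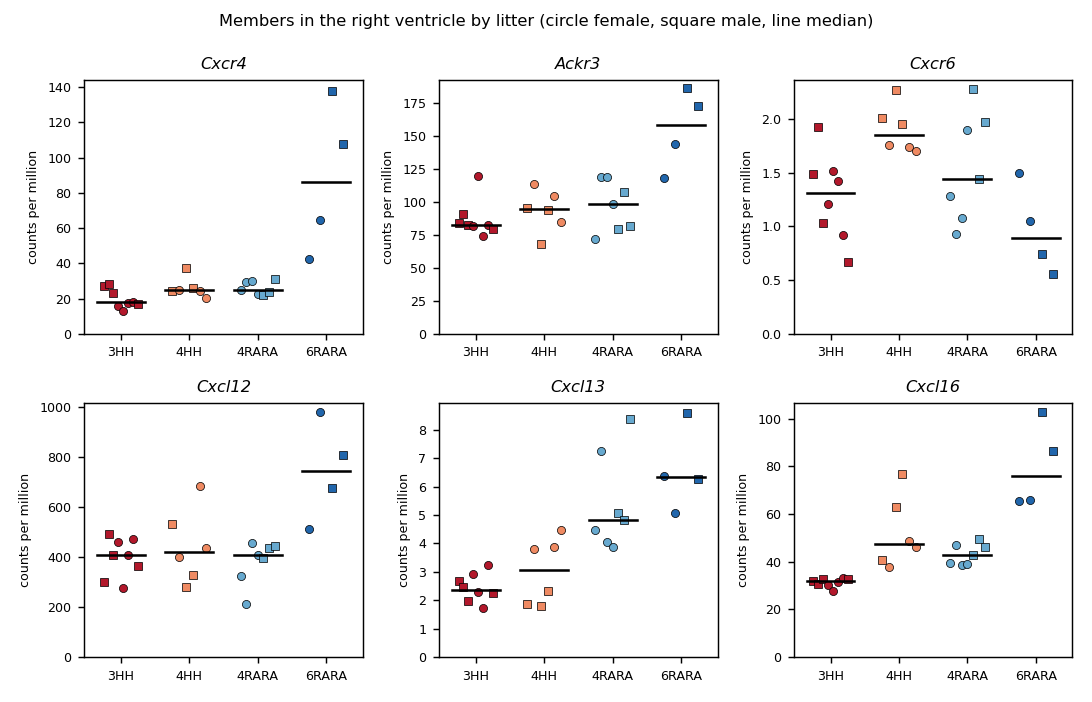
CPM of each member in right ventricle, with 1 point per rat (circles female, squares male), grouped by litter, and the litter median as a line. Cxcl13 is lower in litters 3HH and 4HH than in both room air litters. Cxcr4 of 4RARA lies at 22.1 to 31 CPM and that of 6RARA at 42.3 to 138 CPM. Altitude ventricles lie at 13.2 to 28.4 CPM of Cxcr4, apart from 4HH37 at 37.6 CPM.

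The other members were not called at altitude in the ventricle, though Cxcl16 was called in 2 of 19 alternative fits. Ackr3 lay at 68.4 to 120 CPM at altitude and 72.1 to 187 CPM in room air, with a log2 difference of -0.39 (95% interval -0.67 to -0.12, adjusted p = 0.105), and -0.08 without the libraries that stand apart. Cxcl16 lay at 27.8 to 76.9 and 38.8 to 103 CPM, with a difference of -0.50 (-0.84 to -0.16, adjusted p = 0.103), and -0.18 without the libraries that stand apart. The authors' deposited table gives Cxcl16 at -0.472 with a false discovery rate of 0.0498. Cxcl12 lay at 274 to 683 and 210 to 979 CPM, with a difference of -0.30 (-0.69 to 0.08, adjusted p = 0.376) that had the other sign without litter 6RARA, at 0.12. Cxcr6 lay at 0.671 to 2.27 and 0.559 to 2.28 CPM, on 4 to 42 counts, with a difference of 0.17 (-0.26 to 0.60, adjusted p = 0.649). Without litter 4RARA, 5 of the 6 members were called lower at altitude, where 26.5% of 11716 genes were.

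**Figure D3:**
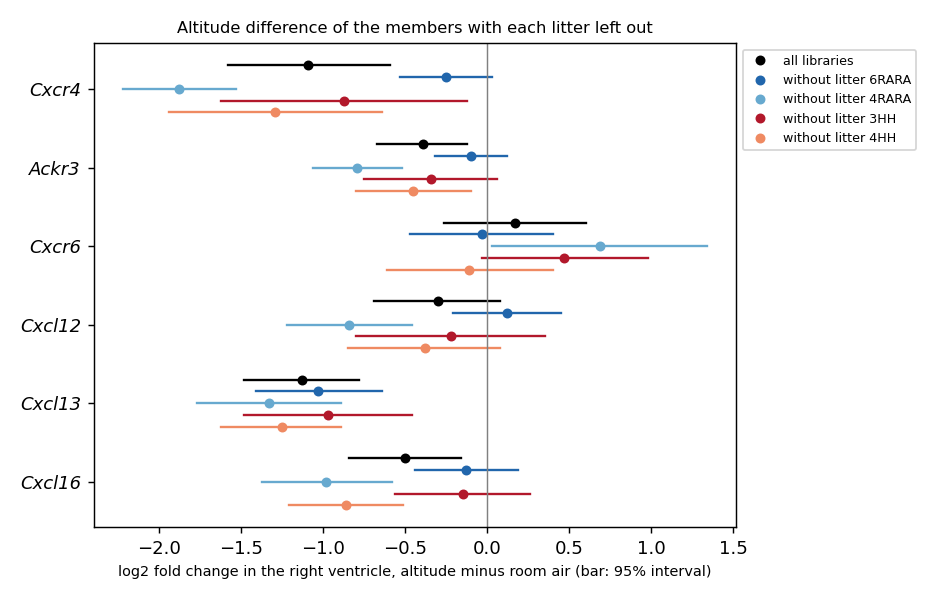
Log2 fold change of altitude over room air in right ventricle for each member, over all libraries and with each litter left out, with 95% intervals as bars. Cxcl13 stays between -1.33 and -0.97, while Cxcr4 moves from -0.25 without litter 6RARA to -1.88 without litter 4RARA.

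Sums of several cell type marker lists in the ventricle also differed in litter 6RARA. Endothelial markers (10 genes) summed to 4338 to 5419 CPM in 6RARA and to 1265 to 2960 CPM in the other 3 litters. Arterial and tip endothelial markers (9 genes) summed to 426 to 520 CPM against 158 to 313 CPM. Cardiac muscle markers (8 genes) summed to 21141 to 30113 CPM in 6RARA and to 38189 to 95513 CPM elsewhere. Smooth muscle and pericyte markers (7 genes) summed to 1239 to 1433 CPM in 6RARA and to 478 to 1139 CPM elsewhere. Neutrophil markers (5 genes) were lower in 6RARA, at 103 to 145 CPM against 162 to 266 CPM. Liver markers (5 genes) reached 1607 CPM in 6RARA (30.2 to 1607 CPM), and lay at 13.3 to 228 CPM elsewhere. Macrophage and monocyte markers (9 genes) were at 757 to 2451 CPM in 6RARA, 429 to 693 CPM in 4RARA, 328 to 658 CPM in 3HH and 608 to 10077 CPM in 4HH, where 4HH37 was the highest and 4HH38 followed at 1111 CPM, so that 6RARA and 4HH overlapped. T and NK cell markers (13 genes) overlapped between these litters, at 51.1 to 74.5 and 50.5 to 88.8 CPM. B cell markers (8 genes), of the cells that CXCL13 attracts, summed to 5.75 to 30.3 CPM at altitude (median 8.39) and 6.66 to 21.8 CPM in room air (median 10.8). The 30.3 CPM are of 4HH37 alone, and the next altitude library was at 11.5 CPM. Of 5 B cell markers tested, none was called, 4 had a negative log2 difference at altitude, and the median was -0.55 (-0.58 without the libraries that stand apart), against 0.02 over all genes. No gene of these lists that the table holds was at 0 in all libraries of a litter. The part of these markers in the values of Cxcr4 and Cxcl13 was not tested. The difference in Cxcl13 was of like size without litter 6RARA.

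**Figure D4:**
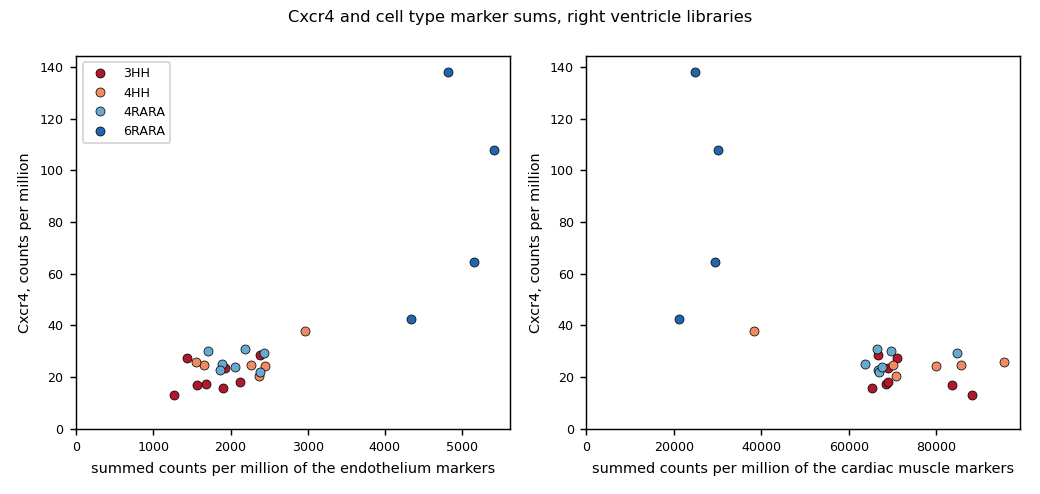
Cxcr4 in CPM against the summed CPM of endothelial markers (left) and cardiac muscle markers (right), with 1 point per right ventricle library, coloured by litter. The 4 libraries of 6RARA lie at 4338 to 5419 CPM of endothelial and 21141 to 30113 CPM of cardiac markers, apart from the other 21.

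Among the remaining chemokine genes in right ventricle, none of 7 CXC chemokines, 5 other CXC-type receptors or 4 CC receptors was called at altitude (edgeR). Over all genes, 343 of 11298 were called, 249 of them lower. Of 11 other chemokine ligands, 2 were called lower. The ligands were Ccl21, which guides lymphocytes through CCR7, at -1.28 ± 0.28 (adjusted p = 0.0244), and Ccl24, which attracts eosinophils, at -0.77 ± 0.19 (adjusted p = 0.0303). Ccl21 lay at a median of 80.7 CPM at altitude, 104 CPM in 4RARA and 349 CPM in 6RARA. Of 22 signalling and processing genes, 1 was lower, the shedding protease Adam17 (-0.55 ± 0.14, adjusted p = 0.0315). Of 15 regulators, 1 was lower, Foxc1, a transcription factor known from mouse to raise Cxcr4 and Cxcl12 expression (-1.01 ± 0.27, adjusted p = 0.0428), with medians of 10.5 CPM at altitude, 12.2 in 4RARA and 38.3 in 6RARA. None of the genes on these lists was called without the libraries that stand apart, where only 34 of all 11343 genes were.

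In lung, the contrast by which the members were chosen, Cxcr4 was lower at altitude in both litters. Altitude lungs lay at 55.5 to 94.1 CPM (median 72.2, n = 14), 4RARA lungs at 72.1 to 128 CPM (median 99.3, n = 8) and 6RARA lungs at 95.1 to 152 CPM (median 115, n = 7). All 14 altitude lungs lay below the room air median, and 11 of 15 room air lungs lay above every altitude lung. The log2 difference was -0.58 ± 0.10 (SE), and -0.55 ± 0.09 without the libraries that stand apart. Within library batches 1 and 2 it was -0.61 and -0.68, and in female and male rats -0.54 and -0.61. Over all 18 alternatives it lay between -0.71 and -0.44. These fits and counts reuse the libraries of the contrast by which the members were chosen, so they give it no separate support. Cxcr6 was lower at -0.79 ± 0.18, at 1.65 to 5.87 CPM in altitude and 2.66 to 9.42 CPM in room air lungs, and 10 of 14 altitude lungs lay below every room air lung.

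The other members lay closer together between treatments in lung. Cxcl12 stood at 0.07 ± 0.10, with 136 to 246 CPM at altitude and 129 to 233 CPM in room air. Cxcl16 stood at -0.21 ± 0.10, with 100 to 184 and 123 to 222 CPM. Ackr3 stood at -0.26 ± 0.14, with 89.2 to 197 and 85.4 to 265 CPM. Cxcl13 stood at -0.17 ± 0.24, with 0.87 to 4.49 and 1.09 to 5.63 CPM, and at 0.06 without the libraries that stand apart. Over all genes, 1.13% of 12115 were called lower at altitude in lung. B cell markers (9 genes) summed to medians of 99.2 CPM in 3HH, 135 in 4HH, 159 in 4RARA and 160 in 6RARA. T and NK cell markers, which include cells that carry Cxcr4 and Cxcr6, summed to 136, 181, 234 and 173 CPM in the same order. Endothelial markers summed to 3102 to 6585 CPM at altitude (median 5166) and 4694 to 6643 CPM in room air (median 5913). Arterial and tip endothelial markers (9 genes) summed to 503 to 772 CPM at altitude (median 609) and 612 to 969 CPM in room air (median 778). The part of these cell types in the values of Cxcr4 and Cxcr6 was not tested.

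**Figure D5:**
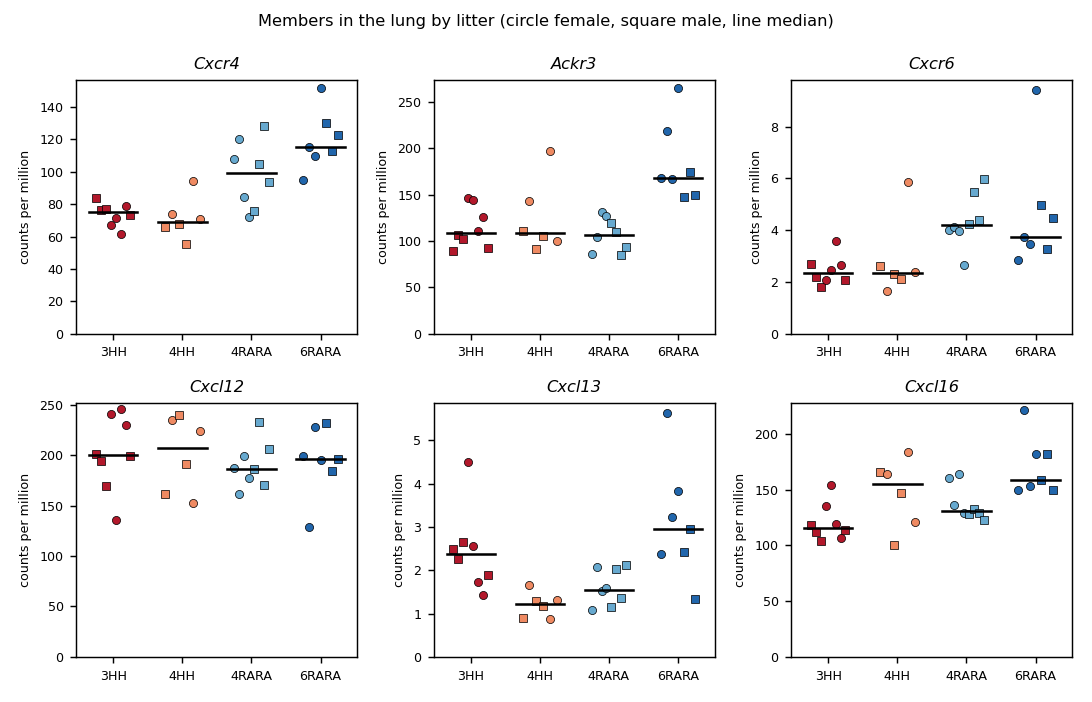
CPM of each member in lung, with 1 point per rat (circles female, squares male), grouped by litter, and the litter median as a line. Cxcr4 medians are 75 and 69.1 CPM in the altitude litters 3HH and 4HH and 99.3 and 115 CPM in the room air litters, while Cxcl13 medians are 2.38, 1.23, 1.56 and 2.95 CPM in 3HH, 4HH, 4RARA and 6RARA.

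Other genes of the axis in lung belong to the same contrast and are given as a description. Of 73 genes on the lists, the 4 named next, all lower at altitude, were picked because they passed the threshold in that same fit. The other 69 did not pass. Over all genes, 242 of 12115 passed, and passing is only how the 4 were picked. Cxcr5, the receptor for CXCL13 on B cells, lay at a median of 1.25 CPM at altitude and 2.59 CPM in room air. Ccr6, found on B and T cells, lay at 1.74 and 3.02 CPM, and Ccl4, a chemokine of macrophages and T cells, at 0.97 and 1.89 CPM. Klf2, a transcription factor of lymphocytes and of endothelium under flow, lay at 45.6 and 89.5 CPM. The ranges of the treatments overlapped in all 4 genes. Ccl21, which did not pass, stood at 0.63 ± 0.18. The median log2 difference of the 15 other chemokine ligands was -0.62, that of the 23 signalling genes 0.01 and that over all genes 0.02.

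Several members were called between the room air litters, and none in edgeR between the altitude litters. This does not show that the altitude litters were alike. In lung, simulated log2 changes of 1 were recovered at 48% between altitude litters and 92% between room air litters. For changes of 0.5 the shares were 2% and 18%. In right ventricle they were 85% and 93% for 1, and 17% and 28% for 0.5. Cxcl16 in lung differed by 0.29 ± 0.14 between altitude litters and 0.30 ± 0.10 in room air. Ackr3 differed by 0.12 ± 0.14 and 0.76 ± 0.13. In room air lung, litter 6RARA was above 4RARA in 3 of 6 members, where 15.6% of 12124 genes were called higher. Ackr3 lay at 148 to 265 CPM in 6RARA and 85.4 to 131 CPM in 4RARA, and differed by 0.76 ± 0.13 (adjusted p = 0.00061). Cxcl13 differed by 0.77 ± 0.25 (adjusted p = 0.0284) and Cxcl16 by 0.30 ± 0.10 (adjusted p = 0.0341). Cxcr4 differed by 0.29 (95% interval 0.02 to 0.56, adjusted p = 0.117). Without the libraries that stand apart the same 3 were called, where 22.4% of 12220 genes were called higher, with Ackr3 at 0.63 ± 0.10 (adjusted p = 0.000168). With library batch as covariate, Cxcl16 was not called (adjusted p = 0.0803).

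In room air right ventricle, 6RARA was above 4RARA in 4 of 6 members, where 33.1% of 11407 genes were called higher. Cxcr4 differed by 1.65 ± 0.23 (adjusted p = 2.57e-05), Cxcl12 by 0.97 ± 0.20 (adjusted p = 0.000609), Cxcl16 by 0.87 ± 0.11 (adjusted p = 4.17e-06) and Ackr3 by 0.69 ± 0.16 (adjusted p = 0.00186). Cxcl12 was at 514, 979, 678 and 808 CPM in the ventricles of 6RARA65, 6RARA67, 6RARA71 and 6RARA72, against 210 to 457 CPM in 4RARA. Cxcl13 differed by 0.28 (95% interval -0.16 to 0.72, adjusted p = 0.287). Cxcr6 differed by -0.68 (-1.41 to 0.04, adjusted p = 0.119) and was thus the member whose estimate lay lower in 6RARA. Ackr3 was not called with RNA integrity as covariate, at 0.50 (adjusted p = 0.11), and Cxcr6 was called without the ventricle of 6RARA65, at -0.98 (adjusted p = 0.0488). All 4 ventricles of 6RARA stand apart, so this comparison has no value without them. Of the other chemokine genes, 6 of 9 CXC chemokines were higher and 1 lower in 6RARA, the latter Cxcl11 (-2.72 ± 0.20, adjusted p = 1.94e-08), and 6 of 11 other ligands were higher, with Ccl19 at 2.27 ± 0.23 (adjusted p = 6.45e-07).

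In the altitude comparison of litters, none of the 6 was called in lung, where 0.741% of 12141 genes were, or in right ventricle, where 0.0531% of 11297 were (edgeR). The nearest was Cxcl16 in right ventricle. It lay at 27.8 to 33.1 CPM in 3HH (n = 8) and 37.9 to 76.9 CPM in 4HH (n = 6), with a log2 difference of 0.72 ± 0.13 (adjusted p = 0.0746). DESeq2, which called 2.56% of genes, called it (adjusted p = 0.000372). In lung, Cxcl13 lay at 1.42 to 4.49 CPM in 3HH and 0.87 to 1.65 CPM in 4HH, a fold of 0.501 in 4HH over 3HH (edgeR adjusted p = 0.12), with an adjusted p of 0.0238 in DESeq2, which called 3.63% of genes. At unadjusted p under 0.05 in edgeR, 1 member passed in lung (Cxcl13, p = 0.00236), where 16.3% of all genes did, and, where 14.3% did, 3 in right ventricle (Cxcl16, p = 5.96e-05, Cxcr4, p = 0.0119, and Cxcr6, p = 0.023).

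Male and female rats did not differ in any member past the threshold, where edgeR called 0.033% of genes in lung and 0.0445% in right ventricle, and DESeq2 called no member either. Ackr3 in lung was lower in males by -0.39 (95% interval -0.66 to -0.13, p = 0.00738, adjusted p = 0.884). Cxcr4 in right ventricle was higher in males by 0.63 (0.14 to 1.13, p = 0.0182, adjusted p = 0.768). In 6RARA the males were at 108 and 138 CPM and the females at 42.3 and 64.6 CPM, while 4RARA males (22.1 to 31 CPM) and females (22.6 to 29.9 CPM) overlapped. Without the libraries that stand apart the differences were -0.19 for Ackr3 in lung and 0.20 for Cxcr4 in right ventricle. The altitude difference of Cxcl13 in right ventricle was -1.60 ± 0.22 in male and -0.69 ± 0.24 in female rats. Males lay at 4.84 to 8.62 CPM of Cxcl13 in room air (n = 5) and 1.78 to 2.66 CPM at altitude (n = 7). Females lay at 3.89 to 7.25 CPM (n = 6) and 1.72 to 4.46 CPM (n = 7). The test of the difference between sexes gave -0.90 ± 0.32 (edgeR p = 0.00851), and -0.84 ± 0.37 without the libraries that stand apart, and no gene passed it after adjustment in edgeR (Cxcl13 adjusted p = 1, 365 genes at p under 0.05), with 2 called by DESeq2.

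Within litters and sexes, Cxcr4 followed Cxcr6 over all lung libraries, and less so without those that stand apart. Over 29 lung libraries, deviations of log2 CPM from the mean of each litter and sex gave Pearson r = 0.59 (permutation p = 0.00063, adjusted over 10 relations 0.0063) and Spearman rho = 0.58 (permutation p = 0.00174, adjusted 0.0174). Leaving out the 2 libraries farthest from the median of Cxcr4 gave r = 0.58. Without the 4 lung libraries that stand apart, r was 0.35 over 25 libraries and not called (permutation p = 0.107, adjusted 0.385). Of these, 6RARA68 and 4HH39 held the highest Cxcr4 (152 and 94.1 CPM) and Cxcr6 (9.42 and 5.87 CPM) of their litters. The fall in r was not tested. Cxcr4 and its ligand Cxcl12 gave r = -0.19 in lung and 0.12 in right ventricle (adjusted permutation p = 0.737 and 0.833), with Spearman rho of -0.18 and 0.12. The other 7 relations lay between -0.01 and 0.23, with adjusted permutation p of 0.737 or more.

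Over all genes with a mean of 5 CPM or more, those whose deviations were most like those of Cxcr4 in lung (10387 genes, 29 libraries) were Bambi (r = 0.87), Id3 (0.79), Phf23 (0.74), Trim27 (0.73) and Gimap9 (0.73). Their r without the libraries that stand apart was 0.85, 0.73, 0.68, 0.71 and 0.78. At the other end were Nadsyn1 (-0.74), B4galnt1 (-0.69), Inpp5b (-0.68), Lrrc45 (-0.68) and Per1 (-0.68). Without the libraries that stand apart these were weaker, at -0.60, -0.50, -0.53, -0.59 and -0.55. In right ventricle (9555 genes, 25 libraries) the most alike were Cox4i2 (0.75), Tlr8 (0.74), Rgs2 (0.74), Usb1 (0.70) and Tmem43 (0.69), and the least Dennd6b (-0.77), Wee1 (-0.76), As3mt (-0.74), Slc25a32 (-0.74) and Dgke (-0.72). Without the libraries that stand apart, r of the most alike in right ventricle was 0.74, 0.63, 0.74, 0.61 and 0.50. That of the least alike was -0.67, -0.69, -0.57, -0.63 and -0.64. No gene stood in the lists of both tissues. These genes were picked for their r among all genes and are given as a description, and libraries share depth and RNA quality.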

How the data were processed

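mRNA libraries of rat lung and right ventricle were made with the KAPA mRNA HyperPrep kit, per the labels' protocols. Per the submitters' processing notes, the tools were FastQC, MultiQC 0.11.5, STAR 2.5, featureCounts 1.5.1 of Subread, and edgeR, and the build was UCSC rn6. The strand setting of counting and the authors' filter of genes are not given in the sources used here. The deposited values are raw read counts per gene, per the file headers. The deposited log2 fold changes and p-values (false discovery rates) of the authors' edgeR comparison were only copied, for right ventricle.

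Counts were fitted in R 4.3.3 with edgeR 4.0.16: filterByExpr (minimum count 10, minimum total 15), TMM scaling, robust quasi-likelihood fit with sex as covariate, Benjamini-Hochberg adjustment over all genes tested, calls under 0.05. The SE is the log2 fold change divided by the square root of F. CPM are TMM-scaled. Voom used limma 3.58.1, and DESeq2 1.42.0 was an alternative. The fit was tested on simulated data. Log2 CPM for relations had a prior count of 2, with 100000 permutations within litters. Depth ranges stand in the report, and precision is that of n rats per litter. The members, lists and tests were chosen with earlier results of these data known. Of each list, up to 3 called genes with the greatest log2 difference were eligible to be named; for likeness, the 5 highest and 5 lowest r. Lung and ventricle of a rat share its name in the labels: within litters, their deviations correlated at a mean r of 0.248 over 25 rats (over 0.1 in 19) and at -0.0322 between littermates. Promoter sequences are from RefSeq (GRCr8), and all 6 members matched. Alternatives: RLE scaling, no filter, DESeq2, no sex term, library batch or RNA integrity as covariate, a litter or, in the small 6RARA ventricle set, a library left out, litter models, the rat as block, and subsets chosen after seeing the data.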

Additional observations from a re-analysis of the deposited data

Results flagged for a closer look

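In 5 of the 48 sets examined (a member in a tissue and litter), the highest library lay far from its littermates by Dixon's 95% criterion, and chance gives about 1 in 20. Cxcl13 was at 4.49 CPM in the lung of 3HH25, with the next at 2.66 CPM. Cxcr6 was at 5.87 CPM in the lung of 4HH39, with the next at 2.63 CPM, and at 9.42 CPM in the lung of 6RARA68, with the next at 4.98 CPM. Cxcr4 was at 37.6 CPM in the ventricle of 4HH37, the library with lung epithelium markers at 41.2% of lung level, with the next at 25.9 CPM. Ackr3 was at 120 CPM in the ventricle of 3HH27, with the next at 91.3 CPM.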

How the results depend on the processing

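Of the values for single members and relations under alternatives, 466 kept direction and side of the threshold, 23 lost the call, 9 gained it and 24 changed sign. In right ventricle at altitude, 2 members were called, Cxcl13 and Cxcr4. Over 19 alternatives, Cxcl13 was called in 13, Cxcr4 in 6, Cxcl16 in 2, and Cxcl12 and Ackr3 in 1 each. The count was 1 without the libraries that stand apart, with library batch as covariate, without litter 6RARA, with RNA integrity as covariate, also without 4HH37, and in male rats. It was 5 without litter 4RARA. It was 0 without litter 3HH, with litter as random effect and with counts summed over litters. Within library batch 1, within library batch 2 and in female rats it was also 0. Where the count was 0, no gene at all was called, except 4 of 11363 within library batch 2. DESeq2 gave 1 rather than 0 members between altitude litters in lung and in right ventricle. Relations called went from 1 to 0 without the libraries that stand apart and with only litter means removed. The cause was not tested, except that subsets hold fewer rats. Over all genes, calls in ventricle at altitude went from 343 to 34 without the libraries that stand apart, 23 with batch as covariate, 18 without 6RARA, 51 with RNA integrity, 52 without 4HH, 531 without 4HH37, 798 in DESeq2 and 6518 without 4RARA.

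Signs changed as follows. In ventricle at altitude, Cxcl12 was 0.16 without the libraries that stand apart and 0.12 without 6RARA, and Cxcr6 was -0.09, -0.11 without 4HH and -0.03 without 6RARA. Between altitude litters in lung, Cxcl12 was -0.07 without 4HH37, and Cxcr6 -0.13 without the libraries that stand apart. Without those libraries, Cxcr6 was -0.21 between room air litters in lung, and Ackr3 0.04 between tissues in room air. By sex in lung, Cxcr4 was 0.00 with RLE scaling and in DESeq2, 0.10 without those libraries and 0.04 with batch, Cxcl12 -0.08 and -0.02, and Cxcr6 0.16 without those libraries. By sex in ventricle, Ackr3 was 0.01 with batch. The interaction was 0.40 for Cxcr4 and 0.07 for Ackr3 without those libraries, and 0.24 for Cxcr6 with batch. Pearson r with Cxcr4 was -0.50 for Ackr3 in lung and 0.08 in ventricle without those libraries, and with only litter means removed 0.17 for Ackr3 and -0.23 for Cxcr6 in ventricle.

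With the rat as replicate block, 6 members were called between tissues in room air and 4 at altitude, against 5 and 4 over the same rats with no block. Litters in room air ventricle without the libraries that stand apart, and library batch 3 alone, were not run for lack of rats. Settings without 4HH37, within a batch or a sex, and over rats with both tissues were chosen after seeing the data. Cxcl13 and Cxcr6 rest on few counts, at least 4 per library, which limits their precision.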
